A study of Mus musculus with 9 samples.

Results

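The genes described are 10 markers of fibroblasts, namely Pdgfra, Pdgfrb, Thy1, Dcn, Lum, Postn, Acta2, Tagln, Twist1 and Prrx1. They were chosen by gene symbol from the deposited count table, in which each symbol had 1 row, so that 10 of 53801 genes are followed here. All 10 passed the filter on low counts, which left 22452 genes for testing. The question was whether these RNAs, read as a measure of fibroblast RNA in a germ cell culture, changed between groups by a single shared factor.

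The libraries are mRNA from a cultured line of mouse spermatogonial stem cells (SSCs), the germ cells from which spermatogenesis starts. The cells carried Prmt5 flox/flox and Rosa26-CreERT2, a Cre recombinase that hydroxytamoxifen (4OHT, given at 1 µM) activates to delete Prmt5, an arginine methyltransferase. All 9 libraries come from cells given 4OHT. The group called 4OHT (3 libraries) was read as cells given no PRMT5 construct. MU (3 libraries) was read as cells transfected with the catalytically dead PRMT5 (E444Q), and OE (3 libraries) as cells transfected with PRMT5 (WT). The labels hold only the abbreviations 4OHT, MU and OE, and this assignment is a reading of them. Whether the 4OHT cells carried an empty vector is not stated. Against 4OHT, an effect of transfection itself therefore cannot be told apart from that of a construct. The ethanol-treated control was not analysed here, so no group has intact Prmt5 without 4OHT. Nothing says that the libraries of a group came from separate cultures, so the p-values measure only the spread between these libraries, which may be technical. The methods name mitomycin C-treated CF1 mouse embryonic fibroblasts as feeders in the compound screen and feeder wells in the growth curve. They do not say whether feeders were present in, or removed from, the cultures used for RNA-seq.

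Fibroblasts build and hold connective tissue. They sense platelet-derived growth factors through receptor tyrosine kinases, secrete collagens, proteoglycans and matricellular proteins, and, when activated to myofibroblasts, assemble actin fibres that contract. SSCs are commonly grown on a layer of growth-arrested embryonic fibroblasts, which supply matrix and factors, so that RNA of both cell types can enter a library. Thy1 is a special case among the 10, since it is also used to enrich undifferentiated spermatogonia.

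Total counts ran from 78751996 to 365719548 per library, with the MU libraries the deepest (192033300 to 365719548). Prmt5 RNA was lowest in the 4OHT libraries (28.2 to 32.0 counts scaled to library size, CPM), intermediate in MU (145 to 147 CPM) and highest in OE (1071 to 1085 CPM). In MU against OE the catalytic state of the construct therefore cannot be told apart from its level. Replicates were less alike in 4OHT, where the coefficient of variation had a median of 6.56% over the 2742 genes of 100 CPM or more, than in MU (2.02%) or OE (2.51%). All CPM values are scaled by the trimmed mean of M values (TMM), a normalization that levels most genes between libraries. In bulk RNA, fewer cells of a type and less RNA per cell cannot be told apart.

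RNA of all 10 markers was present in every library, from 10.4 CPM (Twist1, OE) to 461 CPM (Dcn, MU). Whether that RNA came from feeders, from other somatic cells or from the germ cells themselves cannot be told apart in these data. The 10 summed to 1816 ± 56.6 CPM in 4OHT, 1146 ± 25.6 CPM in MU and 862.1 ± 9.40 CPM in OE (SD, n = 3 each). The sum was thus 1.58-fold lower in MU and 2.11-fold lower in OE than in 4OHT, and 1.33-fold higher in MU than in OE. Against 4OHT the single genes differed far more than the sum shows, from a 4.54-fold lower level of Tagln to a 1.12-fold higher level of Dcn in MU, whereas between MU and OE all 10 lay between 1.2-fold and 1.37-fold higher in MU.

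**Figure D1:**
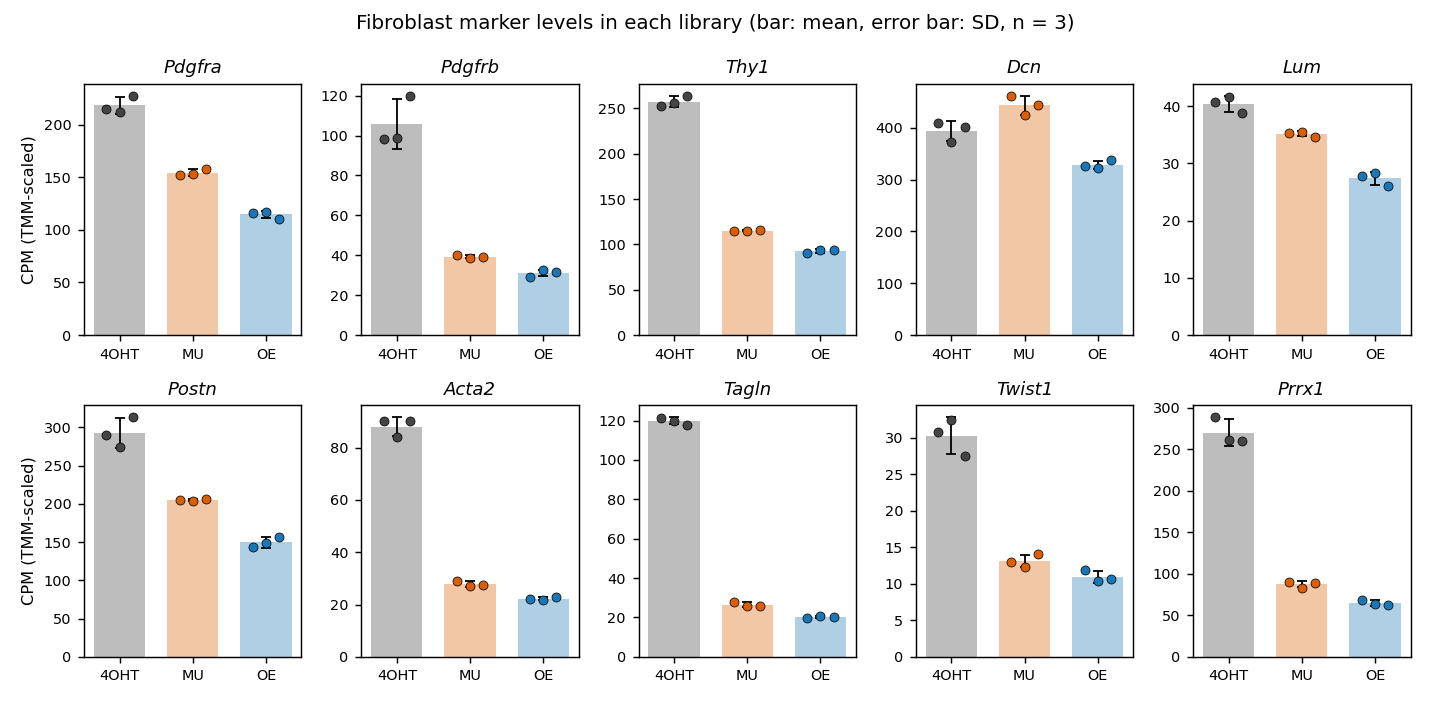
Level of each of the 10 fibroblast markers in CPM (TMM-scaled, linear axis from 0) by group; points are the 9 libraries, bars the group means and error bars the SD (n = 3). For 9 genes the 4OHT libraries are highest, whereas for Dcn the MU libraries (424 to 461 CPM) are above the 4OHT libraries (372 to 408 CPM), and OE is lowest for every gene.

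The table of RefSeq promoters (GRCm38.p6) held 5 of the 10 genes, Prrx1, Postn, Pdgfra, Twist1 and Acta2, and did not hold Pdgfrb, Thy1, Dcn, Lum and Tagln. Windows of 250 bases before each start were searched for the CArG box, the site of serum response factor (SRF) in genes of the contractile apparatus, allowing 1 mismatch in its A/T core (the motif reads the same on both strands). Only the Acta2 window held one, and it held 2, whereas 8.59% of the 32851 promoters in the table held at least 1. The 2 boxes are shown because Acta2 was among the genes that fell most. A link between box and fall was not tested, and Tagln, which fell most of the 10, had no window. In these 30-base stretches of the minus strand of chromosome 19 the capitals mark the box. Both lie before the RefSeq start of Acta2, the first at 84 and the second at 34 bases, and within 1 exon of Acta2 in GENCODE vM21, whose model starts further upstream.
Acta2, chr19:34255438-34255467: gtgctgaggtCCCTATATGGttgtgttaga
Acta2, chr19:34255388-34255417: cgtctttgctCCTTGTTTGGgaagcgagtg

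A window of Postn, which with Pdgfra changed least of the 5 genes against 4OHT, is also given. It lies on the plus strand, where it overlaps no GENCODE exon. The table held 2 starts of Postn, and neither window had a CArG box. In the window shown, the capitals mark 2 overlapping matches to TATA motifs searched on this strand only, TATATAA starting 28 and TATAAA starting 26 bases before its RefSeq start. These are held by 2.05% and 7.59% of the promoters in the table, and the window of the other Postn start, at chr3:54359017-54359266, held neither. A match is a description of the letters and not a measured site.
Postn, chr3:54360857-54361106: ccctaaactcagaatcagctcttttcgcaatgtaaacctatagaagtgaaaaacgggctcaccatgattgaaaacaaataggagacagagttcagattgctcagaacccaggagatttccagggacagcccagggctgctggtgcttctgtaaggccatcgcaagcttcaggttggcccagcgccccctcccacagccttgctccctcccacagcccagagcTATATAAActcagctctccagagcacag

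The platelet-derived growth factor receptors came first in the order of roles. Pdgfra (ENSMUSG00000029231, GRCm38 chromosome 5, 75152292 to 75198215), the alpha receptor typical of matrix-forming fibroblasts, measured 215, 212 and 228 CPM in 4OHT, 152, 153 and 158 CPM in MU, and 116, 117 and 111 CPM in OE. Pdgfrb (ENSMUSG00000024620, chromosome 18, 61045150 to 61085061), the beta receptor shared by fibroblasts and pericytes, measured 98.0, 98.8 and 120 CPM in 4OHT, 40.02, 38.8 and 38.9 CPM in MU, and 29.3, 32.6 and 31.6 CPM in OE. For both receptors every 4OHT library was above every MU library, and every MU library above every OE library. By edgeR's quasi-likelihood test with Benjamini-Hochberg adjustment over all genes tested, Pdgfra was 1.41-fold lower in MU than in 4OHT (log2 fold change -0.50 ± 0.047 SE, adjusted p = 5.97e-07) and 1.90-fold lower in OE (-0.93 ± 0.047, adjusted p = 1.03e-09). The fall of Pdgfrb was larger, at 2.69-fold in MU (log2 -1.43 ± 0.075, edgeR adjusted p = 1.71e-09) and 3.39-fold in OE (-1.76 ± 0.077, adjusted p = 2.07e-10). The 95% intervals of the receptors' log2 fold changes did not meet in MU against 4OHT, at -0.60 to -0.40 for Pdgfra and -1.59 to -1.27 for Pdgfrb.

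Thy1 (ENSMUSG00000032011, chromosome 9, 44043384 to 44048579) encodes a glycosylphosphatidylinositol-anchored surface protein of fibroblasts and of undifferentiated spermatogonia. Its level was 252, 256 and 264 CPM in 4OHT, 115, 115 and 116 CPM in MU, and 90.0, 94.0 and 94.0 CPM in OE, with no overlap between groups. It fell 2.23-fold in MU (log2 -1.16 ± 0.044, edgeR adjusted p = 7.71e-11) and 2.78-fold in OE (-1.47 ± 0.044, adjusted p = 6.56e-12). Of the 10 markers, Thy1 lay nearest their median profile over the 9 libraries (Euclidean distance of centred log2 CPM 0.132). That profile is the median of these same 10 genes, so the genes in its middle are near it by construction.

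Of the matrix genes, Dcn and Lum changed least of the 10, and Dcn rose in MU. Dcn (ENSMUSG00000019929, chromosome 10, 97479609 to 97518143), decorin, a small leucine-rich proteoglycan that binds collagen fibrils, measured 408, 372 and 402 CPM in 4OHT, 461, 424 and 444 CPM in MU, and 325, 323 and 337 CPM in OE. All MU libraries were above all 4OHT libraries, and all OE libraries below them. Dcn was 1.12-fold higher in MU than in 4OHT (log2 0.17 ± 0.050, edgeR adjusted p = 0.0106) and 1.2-fold lower in OE (-0.26 ± 0.050, adjusted p = 4.53e-04). The rise in MU did not pass without MU replicate 1 (log2 0.145, edgeR adjusted p = 0.056) or without MU replicate 3 (0.154, adjusted p = 0.0543).

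Lum (ENSMUSG00000036446, chromosome 10, 97565128 to 97572703), lumican, a proteoglycan of the same family whose gene lies near that of Dcn, measured 40.7, 41.6 and 38.7 CPM in 4OHT, 35.4, 35.5 and 34.6 CPM in MU, and 27.8, 28.3 and 26.1 CPM in OE. The groups did not overlap, although the step from 4OHT to MU was small. Lum was 1.15-fold lower in MU (log2 -0.20 ± 0.057, edgeR adjusted p = 0.00837) and 1.47-fold lower in OE (-0.56 ± 0.058, adjusted p = 1.38e-06). Scaled by total counts alone, or without the filter on low counts, Lum no longer passed in MU (log2 -0.088, edgeR adjusted p = 0.22, and -0.138, adjusted p = 0.0949).

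Postn (ENSMUSG00000027750, chromosome 3, 54361109 to 54391037), periostin, a matricellular protein of remodelling connective tissue, measured 290, 274 and 313 CPM in 4OHT, 205, 204 and 206 CPM in MU, and 143, 149 and 157 CPM in OE. Its 4OHT libraries spread over a wider range than its MU libraries, and no 2 groups overlapped. It fell 1.43-fold in MU (log2 -0.51 ± 0.055, edgeR adjusted p = 2.27e-06) and 1.95-fold in OE (-0.96 ± 0.055, adjusted p = 3.53e-09), close to the values of Pdgfra.

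Tagln fell most of the 10, and its contractile partner Acta2 was next to it in MU and, after Prrx1, in OE. Acta2 (ENSMUSG00000035783, chromosome 19, 34241090 to 34255590), smooth muscle alpha-actin and the usual marker of myofibroblasts, measured 90.0, 84.0 and 90.1 CPM in 4OHT, 29.0, 27.1 and 27.5 CPM in MU, and 22.2, 21.8 and 22.9 CPM in OE. Tagln (ENSMUSG00000032085, chromosome 9, 45929619 to 45936058), transgelin, an actin-binding protein of contractile cells, measured 121.5, 120 and 117.9 CPM in 4OHT, 27.9, 25.7 and 25.6 CPM in MU, and 19.7, 20.9 and 20.2 CPM in OE. For both, the gap between 4OHT and the other 2 groups was many times the spread within a group, while MU and OE were close and still did not overlap. Acta2 fell 3.16-fold in MU (log2 -1.66 ± 0.056, edgeR adjusted p = 2.62e-11) and 3.95-fold in OE (-1.98 ± 0.057, adjusted p = 4.12e-12). Tagln fell 4.54-fold in MU (log2 -2.18 ± 0.054, edgeR adjusted p = 1.89e-12) and 5.91-fold in OE (-2.56 ± 0.056, adjusted p = 4.26e-13). The strand used in counting is not stated, and Tagln shares exon sequence on the opposite strand with Pcsk7 (108 bases) and with the antisense gene Gm48529 (645 bases), so that reads of these stretches cannot be told apart. Summed over the 9 libraries, Tagln held 57888 counts, Pcsk7 held 29004 over its whole length and Gm48529 held 6278.

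The transcription factors of the mesenchyme fell by unequal amounts. Twist1 (ENSMUSG00000035799, chromosome 12, 33957671 to 33959829), a basic helix-loop-helix factor of mesenchymal cells, was the least abundant, at 30.8, 32.5 and 27.5 CPM in 4OHT, 13.0, 12.3 and 14.0 CPM in MU, and 11.8, 10.4 and 10.6 CPM in OE. Prrx1 (ENSMUSG00000026586, chromosome 1, 163245119 to 163313710), a paired-related homeobox factor of limb and connective tissue mesenchyme, measured 288, 261 and 260.3 CPM in 4OHT, 89.9, 83.2 and 88.5 CPM in MU, and 68.7, 63.2 and 62.5 CPM in OE. The lowest MU library of Twist1 (12.3 CPM) was near the highest OE library (11.8 CPM), whereas those of Prrx1 were well apart. Twist1 fell 2.31-fold in MU (log2 -1.21 ± 0.086, edgeR adjusted p = 3.57e-08) and 2.77-fold in OE (-1.47 ± 0.088, adjusted p = 5.16e-09). Prrx1 fell 3.10-fold in MU (log2 -1.63 ± 0.059, edgeR adjusted p = 5e-11) and 4.16-fold in OE (-2.06 ± 0.060, adjusted p = 4.6e-12).

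Of the 10 markers, 1 (Dcn) was called higher and 9 lower in MU against 4OHT, where 56% of all genes tested were called (29.5% higher and 26.5% lower). In OE against 4OHT all 10 were called lower, where 57.8% of all genes were called, 29.9% higher and 27.9% lower. The members' median log2 fold changes were -1.18 and -1.47, with medians over all genes of 0.04 and 0.02. The libraries of the groups did not overlap for any of the 10 in either comparison, as for 63.9% of all genes in MU (33.8% higher and 30.1% lower) and 61.6% in OE (31.5% higher and 30.1% lower). With such a background the number of markers called says little by itself, and the size of each change is given above. These comparisons share the 4OHT libraries, and the comparison of MU with OE is the difference between them.

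In MU against OE, 9 of the 10 were called higher in MU, and none lower, where 3.17% of all genes were called, 2.12% higher and 1.06% lower. Postn was the furthest apart, at 1.37-fold higher in MU (log2 0.45 ± 0.055, edgeR adjusted p = 3.03e-04). Dcn (0.43 ± 0.050), Pdgfra (0.43 ± 0.047) and Prrx1 (0.43 ± 0.058) followed on the log2 scale, then Tagln (0.38 ± 0.054), Lum (0.36 ± 0.057), Pdgfrb (0.33 ± 0.075), Acta2 (0.32 ± 0.055) and Thy1 (0.32 ± 0.043), with edgeR adjusted p-values from 1.3e-04 (Pdgfra) to 0.0256 (Pdgfrb). Twist1, at log2 0.26 ± 0.086 (95% interval 0.08 to 0.45), did not pass (edgeR adjusted p = 0.16). No member's MU and OE libraries overlapped, as for 25.9% of all genes (13% higher and 12.8% lower). The call of Pdgfrb was lost without any 1 of MU replicates 1, 2 and 3 and OE replicates 1 and 3 (edgeR adjusted p from 0.0839 to 0.12), and the direction held in each. No member passed a test against a 1.5-fold change, for which the count at an unadjusted p under 0.05 was also 0.

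Whether the markers moved by 1 factor was then examined. Within the 10, log2 fold changes spanned 2.35 in MU against 4OHT and 2.30 in OE against 4OHT, from Tagln to Dcn in both, which is a 5.10-fold and a 4.92-fold difference between the most and the least changed gene. The 95% intervals were apart for 39 and 40 of the 45 pairs of markers. In MU against OE the span was 0.19, or 1.14-fold, and the intervals met for all pairs (0 of 45 apart). These intervals come from the fit of all 9 libraries, which includes the less alike 4OHT replicates. Pairs were not counted with MU and OE fitted alone. With 1 library left out the span was 2.26 to 2.38 against 4OHT and 0.16 to 0.25 between MU and OE. Other scalings, filters or thresholds shift all 10 genes nearly alike or not at all, so they could not test the span.

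**Figure D2:**
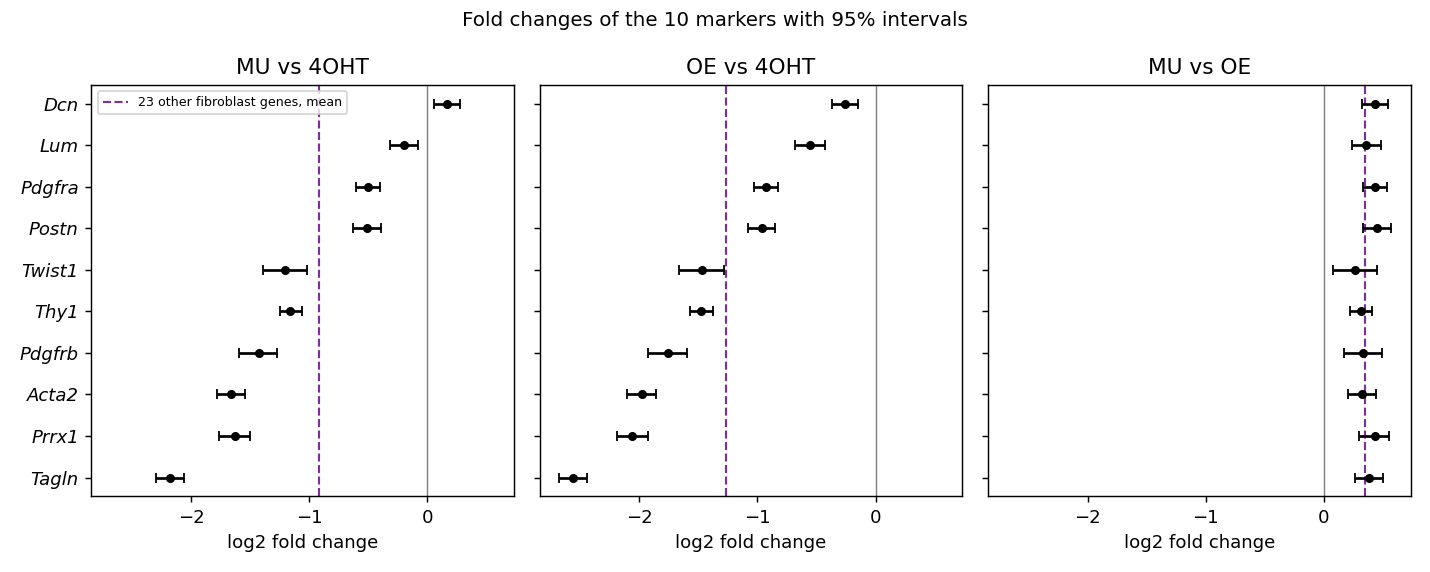
Log2 fold change of each marker in the 3 comparisons, with 95% intervals from the edgeR fit; the dashed line is the mean change of 23 other fibroblast genes and the grey line is no change. Against 4OHT the points run from about -2.2 (Tagln) to 0.17 (Dcn) in MU and from -2.56 to -0.26 in OE, while in MU vs OE all 10 stand within 0.26 to 0.45 around the dashed line at 0.35.

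As a yardstick outside the 10, a list of 24 other fibroblast genes was used, of collagens, fibronectin, fibulins and other matrix and surface genes, of which 23 had a mean of at least 1 CPM. Their mean log2 change was -0.919 in MU against 4OHT (1.89-fold lower), -1.267 in OE against 4OHT (2.41-fold lower) and 0.348 in MU against OE (1.27-fold higher). When each library was scaled so that these 23 genes were level on average, an edgeR test of each marker asked whether it departed from that factor. The error of the factor itself is not part of the test, and the 23 genes were far from uniform themselves. Their log2 changes ran from -1.86 (Fbln2) to 0.24 (Fbln1) in MU and from -2.22 to 0.24 in OE, both against 4OHT. In MU against OE they ran from -0.28 to 0.49, a span of 0.78, where the 10 markers spanned 0.19.

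In MU against 4OHT all 10 markers departed from the factor, 4 above it and 6 below. Of all genes tested 73.7% departed, 67.5% above and 6.28% below. Of the 24 other fibroblast genes themselves, 9 were above and 10 below, so departing in either direction was not particular to the markers. Dcn (1.085 on the log2 scale), Lum (0.72), Pdgfra (0.42) and Postn (0.41) were above the factor. Thy1 (-0.24), Twist1 (-0.295), Pdgfrb (-0.50), Prrx1 (-0.72), Acta2 (-0.74) and Tagln (-1.27) were below it, with edgeR adjusted p-values down to 7.43e-09. The departure of Twist1 was the least firm, since it was lost when 4OHT replicate 1 or 2 or MU replicate 1 or 2 was left out (edgeR adjusted p from 0.0612 to 0.105).

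In OE against 4OHT the same 4 genes were above, with Dcn at 1.00, Lum at 0.70, Pdgfra at 0.34 and Postn at 0.30, and 5 were below. Of all genes 78% departed, 73% above and 5.05% below, and of the 24 other fibroblast genes 9 were above and 9 below. The lower ones were Thy1 (-0.21), Pdgfrb (-0.49), Acta2 (-0.72), Prrx1 (-0.80) and Tagln (-1.30). Twist1, at -0.21, did not pass (edgeR adjusted p = 0.0931), but passed without 4OHT replicate 3 (-0.323, adjusted p = 0.00501).

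In MU against OE 0 of the 10 departed from the factor by edgeR, also at an unadjusted p under 0.05, and 0 by DESeq2 in either way of counting, while 47.7% of all genes departed, 0.592% above it and 47.1% below. Of the contractile genes and mesenchymal transcription factors listed below, 11 of 18 and 5 of 12 departed, all below it. Of the 24 other fibroblast genes 1 was above it and 2 below. The departures of the 10 markers ran from -0.09 to 0.11 and their 95% intervals from -0.32 to 0.26 on the log2 scale. A departure inside these bounds was not detectable for the least precise of them. Fitted on the MU and OE libraries alone, Postn (0.105, edgeR adjusted p = 0.0186) and Pdgfra (0.082, adjusted p = 0.0454) did depart, and 3 of the 10 at an unadjusted p under 0.05.

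The make-up of the marker RNA within each library shows the same pattern without any scaling between libraries. The share of each gene in the summed CPM of the 10 was compared, a quantity that does not correct for gene length. Dcn made up 22.3%, 21.2% and 21.6% of the sum in the 4OHT libraries, 39.5%, 37.9% and 38.5% in MU, and 38.1%, 37.6% and 38.6% in OE. The share of Dcn was therefore higher in all 6 MU and OE libraries than in any 4OHT library, and its MU and OE ranges overlapped. Tagln took 6.34% to 6.85% in 4OHT, 2.22% to 2.39% in MU and 2.30% to 2.43% in OE. Prrx1 went from 14.0% to 15.7% in 4OHT to 7.44% to 7.70% in MU and 7.17% to 8.05% in OE. For these 3 genes the 4OHT libraries stood alone and the MU and OE ranges overlapped. The MU and OE ranges of 2 of the 10 genes did not overlap, Acta2 (2.38% to 2.48% and 2.53% to 2.63%) and Thy1 (9.85% to 10.3% and 10.5% to 10.9%). Both shares were slightly higher in OE, although the CPM of both genes was lower there than in MU. With so few libraries per group, some ranges can separate by chance, and how many would do so was not tested. The shares of a library are parts of the same sum, so a rise in the share of any gene lowers those of others.

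**Figure D3:**
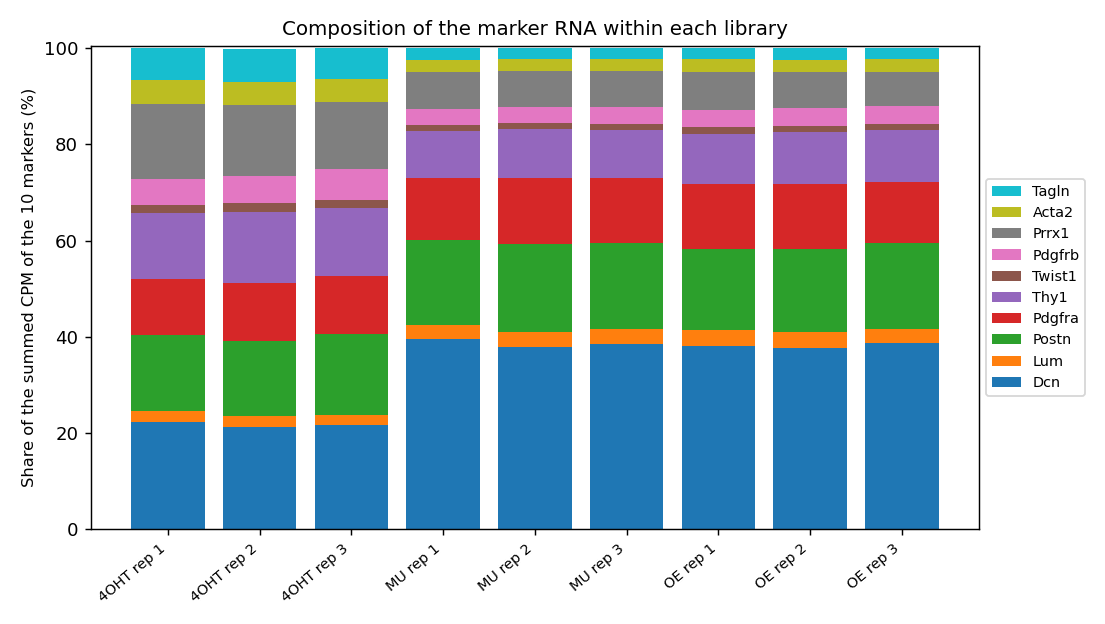
Share of each marker in the summed CPM of the 10, in percent, for each of the 9 libraries. In the 4OHT libraries Dcn (bottom) takes 21.2% to 22.3% and Tagln (top) 6.34% to 6.85%, whereas the MU and OE libraries look alike, with Dcn at 37.6% to 39.5% and Tagln at 2.22% to 2.43%.

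The order of the markers also changed when levels were divided by exon length (CPM per kilobase). In 4OHT, Thy1 was highest (85.9 ± 2.04), followed by Dcn (67.5 ± 3.29), Tagln (60.3 ± 0.898), Acta2 (40.1 ± 1.60), Postn (33.6 ± 2.27) and Prrx1 (24.4 ± 1.45 CPM per kilobase, SD, n = 3), each apart from its neighbour. Pdgfra (21.8), Pdgfrb (19.3), Twist1 (18.6) and Lum (16.5) closed the order, each overlapping the next. In MU, Dcn led (75.9), followed by Thy1 (38.5), Postn (23.5), Pdgfra (15.4) and Lum (14.4). Tagln (13.3) and Acta2 (12.7) overlapped there, as did Twist1 (8.05) and Prrx1 (7.88), and Pdgfrb was last (7.17). In OE, Dcn (56.2), Thy1 (30.9) and Postn (17.2) were again the first 3 and Pdgfrb (5.69) the last, with overlaps between Pdgfra and Lum, Tagln and Acta2, and Prrx1 and Pdgfrb. Tagln thus went from the 3rd place in 4OHT to the 6th in MU and OE, and Lum from the 10th to the 5th.

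Related genes were looked at by lists that leave the 10 out, as counts of calls and medians. Of the 24 other fibroblast genes, 1 was called higher and 22 lower in both comparisons with 4OHT (median log2 -0.88 in MU and -1.21 in OE), and 19 were higher and 1 lower in MU against OE (median 0.39). Fn1, fibronectin and among the most abundant of them, went from 4957 ± 672 CPM in 4OHT to 1822 ± 24 in MU and 1488 ± 20.3 in OE. The genes of the contractile apparatus (18 tested) were called higher in 2 and lower in 14 cases in MU, and 2 and 15 in OE, against 4OHT (medians -1.04 and -1.30). In MU against OE 3 of these 18 were called, all higher, with a median of 0.06, a count that fell to 0 without any 1 of MU replicates 1, 2 and 3 and OE replicates 1 and 2, to 1 without OE replicate 3 or with DESeq2's size factors, and rose to 6 with only the 2 groups fitted. Tpm1, tropomyosin, fell from 328 ± 7.65 CPM in 4OHT to 91.1 ± 1.73 in MU and 80.3 ± 2.00 in OE, and Cnn2, calponin 2, from 190.1 ± 17.5 to 53.8 ± 0.444 and 44.6 ± 2.87. Srf, which encodes SRF, was 91.9 CPM in 4OHT, 70.6 in MU and 72.5 in OE, a smaller fall (log2 -0.38 in MU, edgeR adjusted p = 2.68e-04).

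The small leucine-rich proteoglycans other than Dcn and Lum did not move as 1 group. Of 12 tested, 4 were called higher and 2 lower in MU, and 3 higher and 2 lower in OE, against 4OHT. Several were barely detected, since 8 of the 12 reached a mean of 1 CPM in 4OHT, 7 in MU and 7 in OE. A gene called higher in MU stood at 0.337 CPM there and 0.0808 CPM in 4OHT. Bgn, biglycan, the closest in kind to Dcn and also among the 24 fibroblast genes, fell from 1184 ± 76.9 CPM in 4OHT to 506 ± 7.51 in MU and 386 ± 6.75 in OE. Aspn, asporin, rose from 7.32 ± 0.641 CPM to 10.5 ± 0.417 and 9.82 ± 0.584.

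Among other transcription factors of the mesenchyme, 1 of 12 was called higher and 10 lower in each comparison with 4OHT (medians -1.28 and -1.28). Twist2, the paralogue of Twist1, fell from 83.7 ± 3.22 CPM in 4OHT to 20.6 ± 0.495 in MU and 16.3 ± 1.28 in OE. Foxf1, a forkhead factor, was the 1 that rose, from 68.0 ± 6.39 to 103.2 ± 5.12 and 103 ± 0.737 CPM.

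Ligands of the receptors were present too. Of the 4 platelet-derived growth factor genes, Pdgfa, the main ligand of the alpha receptor, was higher in MU and OE (38.3 ± 2.07 and 37.7 ± 1.98 CPM) than in 4OHT (30.1 ± 1.18 CPM), and the other 3 were lower. Pdgfc fell furthest, from 30.4 ± 2.22 CPM to 9.56 ± 0.171 and 7.64 ± 0.465. In the list of transforming growth factor beta (TGF-beta) genes, of ligands, receptors, binding proteins and classic targets, 1 of 12 was called higher and 11 lower in both comparisons with 4OHT (medians -1.35 and -1.62). Ctgf, a classic TGF-beta target, fell from 301 ± 7.76 CPM in 4OHT to 87.8 ± 2.14 in MU and 55.0 ± 3.41 in OE. Ctgf also differed between MU and OE, by a log2 of 0.67 ± 0.052 (edgeR adjusted p = 9.83e-06), where the 10 markers differed by at most 0.45.

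Markers of other cells moved as well, and their part in the result was not tested. The 14 germ cell markers summed to 2791 to 2855 CPM in 4OHT, 3752 to 3850 in MU and 4013 to 4056 in OE. Of them 8 were called higher and 5 lower in both comparisons with 4OHT. Between MU and OE, edgeR called 0 of them (4 at an unadjusted p under 0.05) and DESeq2 called 1. Dazl, a germ cell RNA-binding protein gene, rose from 381 ± 25.9 CPM to 687 ± 24.5 and 791 ± 30.2, while Gfra1, the receptor for GDNF on SSCs, fell from 120.4 ± 4.09 to 27.6 ± 0.786 and 28.2 ± 0.717. All 8 macrophage markers were called higher in MU and OE than in 4OHT, and 7 of 8 were lower in MU than in OE. They summed to 171 to 186 CPM in 4OHT, 1110 to 1141 in MU and 2142 to 2263 in OE, of which Lyz2 alone was 151 ± 6.59, 944 ± 16.3 and 1878 ± 53.0 CPM. Fshr of the Sertoli cell list and Hsd3b1 and Lhcgr of the Leydig cell list were at 0 in all libraries. The Sertoli list summed to 25.5 to 29.0, 21.8 to 22.9 and 19.6 to 22.6 CPM, and the endothelial list to 14.98 to 17.98, 13.7 to 14.2 and 14.1 to 16.2 CPM, in 4OHT, MU and OE. In the Sertoli list 4 of 7 tested genes were called higher and 2 lower in each comparison with 4OHT, in the Leydig list 1 of 2 higher and none lower, and in the endothelial list 1 of 6 higher, with 2 lower in MU and 1 lower in OE. The Leydig call was Cyp11a1, a gene of very low level, at 0 CPM in 4OHT, 0.302 in MU and 0.152 in OE. Star, at 5.54, 6.41 and 6.10 CPM, was not called. The small counts of these lists also rested on single libraries. The endothelial calls were 0 in both comparisons without 4OHT replicate 3 and 1 in each without MU replicate 2 or 3, and in OE also 1 without 4OHT replicate 1, MU replicate 1 or any OE replicate. The Leydig calls were 2 without 4OHT replicate 1, and the Sertoli calls in MU 3 without 4OHT replicate 2 or MU replicate 2. Pericytes share Pdgfrb and Acta2 with fibroblasts, and of their 7 markers 5 were tested and 2 were called, both lower, in each comparison with 4OHT. Notch3 fell from 88.2 ± 13.7 CPM to 21.3 ± 1.03 and 16.6 ± 0.979, while Kcnj8 and Higd1b did not pass the filter. Mcam, the most abundant of the list, was 408 ± 42.6 CPM in 4OHT, 379 ± 10.8 in MU and 399 ± 1.53 in OE. It was not called against 4OHT (edgeR adjusted p = 0.175 in MU and 0.696 in OE). The list summed to means of 508, 406 and 420 CPM in 4OHT, MU and OE.

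**Figure D4:**
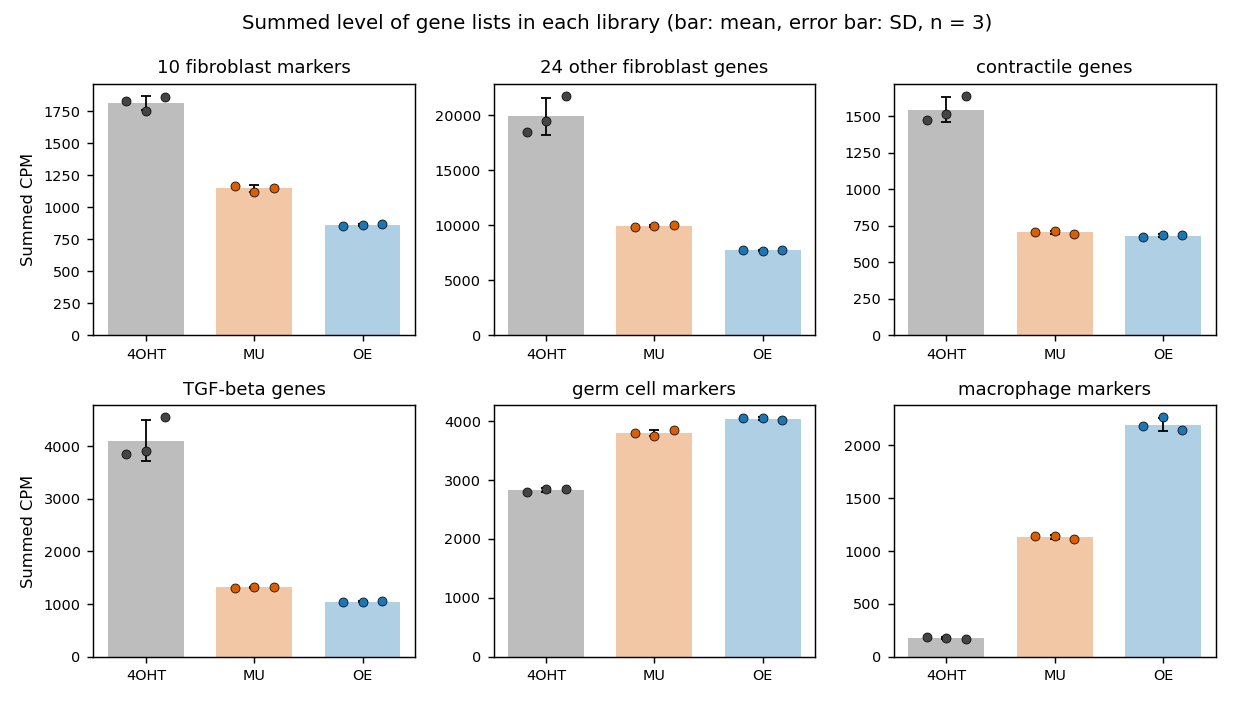
Summed CPM (TMM-scaled, linear axes from 0) of 6 gene lists by group; points are the 9 libraries, bars the means and error bars the SD (n = 3). The 10 markers, the other fibroblast genes, the contractile genes and the TGF-beta genes are highest in 4OHT, while the germ cell markers (2791 to 2855 CPM in 4OHT) and the macrophage markers (171 to 186 CPM in 4OHT) are lowest there.

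Over the 9 libraries, the genes whose centred log2 CPM lay nearest the median profile of the 10 were Ugdh (distance 0.138), Crtap (0.173), Prdx6 (0.174), Klf3 (0.175) and Rassf1 (0.184), out of 15408 genes with a mean of at least 1 CPM. Ugdh, which makes the UDP-glucuronate used for glycosaminoglycans, was 122 ± 1.84 CPM in 4OHT, 51.6 ± 0.721 in MU and 43.9 ± 1.40 in OE. Crtap, a cartilage-associated protein needed for collagen hydroxylation, was 99.2 ± 3.12, 46.4 ± 0.337 and 37.2 ± 0.996 CPM. The markers themselves make up that median, so the middle ones lie near it by construction. Their distances ran from 0.132 (Thy1) and 0.197 (Twist1) to 1.35 (Lum), 1.49 (Tagln) and 1.82 (Dcn), so that 1 median profile described only some of the 10.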

How the data were processed

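Gene expression was measured by paired-end RNA-seq of mRNA in 9 libraries, grouped by sample title into 4OHT, MU and OE (3 each). Reads had been cleaned (BBmap, Trimmomatic 0.39), mapped to GRCm38 (HISAT2 2.2.1) and quantified per gene (StringTie 2.2.1), and the authors deposited raw counts for 53801 genes, without normalization. Strandedness and the treatment of multiply aligned reads are not given in the sources used here. The value 4 was 1.35 to 1.84 times as frequent as its neighbours, so 1 read pair may equal about 4 counts.

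Counts were analysed in R 4.3.3 with edgeR 4.0.16 (filterByExpr with minimum count 10 and minimum total 15, TMM, quasi-likelihood test with group as the only term over all 9 libraries, Benjamini-Hochberg adjustment over 22452 genes, threshold 0.05). The common biological coefficient of variation was 0.155. The test against the reference factor rescaled each library to the geometric mean of 23 fibroblast genes. DESeq2 1.42.0 and other settings were tried as alternatives. The fits were also run on simulated data in which few genes changed and the fibroblast genes moved by 1 factor. The real data differ in both, so that run does not show how the fits behave on them. A floor of 3 counts equals 0.0082 to 0.0381 CPM. If 1 read pair is about 4 counts, that floor is less than 1 read pair and understates the counting error.

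The members and lists were chosen with earlier results of these data known. All 10 members, Prmt5, the 2 most abundant and the 2 most changed genes (OE vs 4OHT, mean of at least 1 CPM) of each list, and the 5 genes nearest the members' profile could be named. Srf and Fbln1 were named after their values were seen. Exon lengths and coordinates are from GENCODE vM21 (53620 identifiers matched), promoters from RefSeq. No 150-base window of the longest transcript of any member occurred in another gene's transcripts.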

Additional observations from a re-analysis of the deposited data

How the results depend on the processing

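Of 480 recomputed fold changes of the 10 markers, 471 kept their direction and their side of the threshold, 9 kept the direction but no longer passed, and 0 reversed. The cause of the lost calls was not tested. Against a 1.5-fold change, the genes called numbered 5059 in MU against 4OHT (12571 otherwise), 5645 in OE against 4OHT (12967 otherwise) and 34 in MU against OE (712 otherwise), and the members called 6 and 0 (10 and 9 otherwise) in MU against 4OHT and in MU against OE. In MU against OE, 1140 genes were called by DESeq2 and 1565 when only the 2 groups were fitted, and leaving out 1 library gave 400 (without MU replicate 2) to 1099 (without 4OHT replicate 3). MU replicates 1 and 3 and OE replicate 3 also moved this count, to 432, 411 and 472. With only the 2 groups fitted, 2 members departed from the reference factor in MU against OE (0 otherwise). With collagens alone as the reference, Pdgfra (0.154) and Postn (0.118) no longer departed in OE against 4OHT and Twist1 (-0.392) did. Without the collagens, Twist1 (-0.228) no longer departed in MU against 4OHT.

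Scaling by total counts moved the median log2 fold change of all genes in MU against 4OHT from 0.043 to 0.156. In MU against OE, 66.7% of called genes were higher in MU, against 52.5% with only the 2 groups fitted, and 11.8% of the 34 past a 1.5-fold change, where 4 were higher and 30 lower.

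Replicate numbers did not pair the libraries, since the correlations of deviations between same-numbered libraries ran from -0.088 to 0.036, within the range of the others (-0.068 to 0.082) or below it. With the replicate block, 12443, 12807 and 674 genes and 10, 10 and 9 members were called in the 3 comparisons, and the block changed no call of a member. With counts divided by 4, 10, 10 and 9 members were called. The lowest member level (10.4 CPM) was far above the floor of 3 counts. That distance does not show how much of the spread between 3 libraries was counting error, and the share due to depth was not tested.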
